A study of Homo sapiens with 35 samples.

Results

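The ISG15 conjugation system and UBD were followed as 7 genes of the deposited expression table: ISG15, UBA7, UBE2L6, HERC5, HERC6, USP18 and UBD. They were taken by gene name from its 28503 genes, and all 7 had enough counts to be tested. RNA sequencing was done on DU145, an established prostate cancer line that was derived from a brain metastasis and is used as a model of metastatic disease. Cells expressed a short hairpin RNA directed at ZMYND8, a reader of modified histone tails (shZMYND8), or at JARID1D, the histone H3 lysine 4 demethylase encoded by KDM5D (shJARID1D), and control cells expressed a hairpin directed at luciferase (shLuciferase). All 3 groups share the line, the culture medium and the use of a hairpin, and each has 2 libraries. The labels give each group a single hairpin name and do not state separate cultures behind its libraries. Every p-value therefore reflects variation between libraries that could be purely technical.

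ISG15 is a small protein made of a pair of ubiquitin-like domains, which interferon induces and which is joined to other proteins much as ubiquitin is. UBA7 activates it (the E1 step), UBE2L6 carries it (the E2 step), HERC5 joins it to targets (the E3 step), and USP18 takes it off again and also damps the interferon receptor through IFNAR2. HERC6 is the nearest relative of HERC5, and in mouse it is the main ISG15 ligase. UBD, also called FAT10, is the other modifier with a pair of ubiquitin-like domains; interferon gamma and tumour necrosis factor induce it, and it leads its targets to the proteasome.

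The promoter windows of the members that hold a searched motif are shown because the members' levels moved together. They come from RefSeq on GRCh38.p14 and run from 250 bases before to 50 bases after the annotated start. A window was found for 5 of the 7 members, not for UBA7 on chromosome 3 or USP18 on chromosome 22, with 2 windows for UBE2L6. In ISG15 (chr1:1013247-1013546, plus strand) and HERC5 (chr4:88456869-88457168, plus strand) the capitals mark the core of the interferon-stimulated response element, GAAANNGAA, which a complex of interferon factors that includes STAT2 and IRF9 binds. In UBD (chr6:29559683-29559982, minus strand, shown in the direction of the gene) they mark the NF-kB consensus.
ISG15: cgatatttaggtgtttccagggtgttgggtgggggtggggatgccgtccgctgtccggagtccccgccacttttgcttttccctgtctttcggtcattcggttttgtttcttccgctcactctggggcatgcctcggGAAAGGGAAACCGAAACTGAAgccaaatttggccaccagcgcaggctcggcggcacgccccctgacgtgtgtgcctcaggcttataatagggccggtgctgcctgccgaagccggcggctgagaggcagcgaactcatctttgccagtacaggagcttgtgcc
HERC5: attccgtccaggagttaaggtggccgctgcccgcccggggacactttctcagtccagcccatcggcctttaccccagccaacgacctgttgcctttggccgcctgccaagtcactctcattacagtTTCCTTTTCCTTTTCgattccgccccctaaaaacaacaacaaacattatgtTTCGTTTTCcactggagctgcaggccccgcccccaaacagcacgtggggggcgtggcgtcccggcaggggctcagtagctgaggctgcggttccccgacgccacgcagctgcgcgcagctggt
UBD: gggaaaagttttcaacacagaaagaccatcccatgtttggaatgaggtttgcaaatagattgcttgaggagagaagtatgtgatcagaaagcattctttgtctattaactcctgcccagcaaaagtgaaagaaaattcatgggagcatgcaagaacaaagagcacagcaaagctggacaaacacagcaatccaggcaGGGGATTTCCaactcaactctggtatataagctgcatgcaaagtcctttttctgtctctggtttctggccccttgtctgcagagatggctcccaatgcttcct

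ISG15 held 3 response element cores in the direction of the gene, the first beginning 113 bases before the start and the last ending 93 bases before it, each overlapping the next. HERC5 held 3 on the opposite strand, 2 of them overlapping between 124 and 110 bases before the start and the third between 73 and 65 bases before it. UBD held 1 NF-kB consensus, from 53 to 44 bases before its start, and no response element core. HERC6 and both windows of UBE2L6 held none of the motifs searched. The STAT dimer motif, TTCNNNGAA, was in 0 of the 6 windows. Of all 35116 RefSeq windows of this length, read on both strands, 8.11% held a response element core, 7.66% the STAT dimer motif and 5.91% the NF-kB consensus. Of 82 related genes of the ubiquitin and ubiquitin-like enzyme families with a window, 6 held a response element core: CYLD, UBE2D3, UBE2E2, USP11, USP33 and USP7. A match describes these letters only and is not evidence of a bound site.

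**Figure D1:**
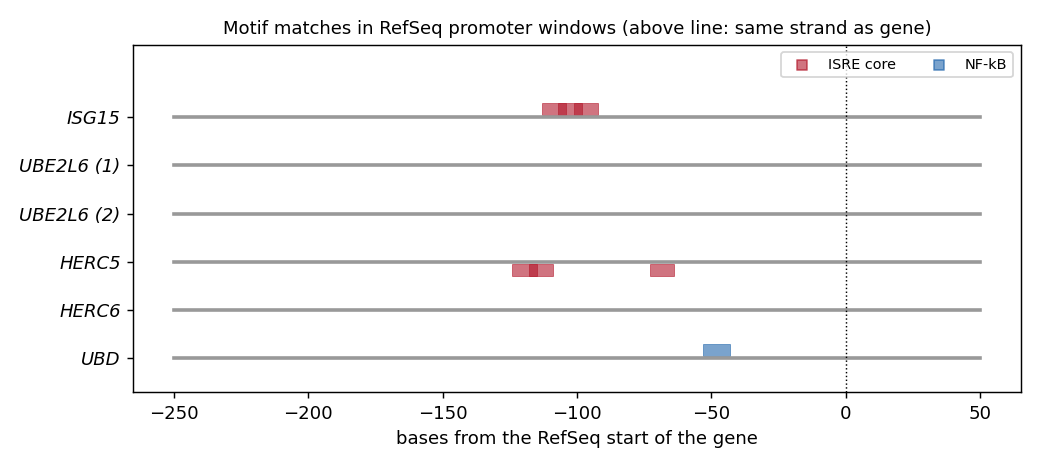
Motif matches in the 6 RefSeq promoter windows of 5 members, with the distance from the annotated start in bases on the horizontal axis; boxes above a line are on the strand of the gene and boxes below it on the opposite strand. The response element cores of ISG15 and HERC5 lie between 124 and 65 bases before the start, and the NF-kB consensus of UBD between 53 and 44.

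Library totals of deposited counts ran between 22925611 and 25001300, and the fragments behind them between 20.7 M and 27.4 M. CPM here is a gene's count after scaling every library to the same total with edgeR's factors. A gene without a fragment could lie at up to 0.112 to 0.151 CPM, and this and the counting intervals below cover counting error only. The targeted genes agreed in direction with the labels: ZMYND8 had 35.5 and 33.2 CPM in shZMYND8 against 64.7 and 52.7 CPM in shLuciferase (-0.77 on the log2 scale, edgeR adjusted p = 0.00491), and KDM5D had 19.6 and 17.9 CPM in shJARID1D against 58.1 and 61.0 CPM in shLuciferase (-1.67, edgeR adjusted p = 0.000831). Without shZMYND8 replicate 2 the call of ZMYND8 was lost (edgeR adjusted p = 0.0581). The epithelial genes KRT8, KRT18, EPCAM and CDH1 summed to 902 to 1008 CPM in shZMYND8, 607 to 735 CPM in shJARID1D and 936 to 1325 CPM in shLuciferase. Within that sum EPCAM, an epithelial adhesion molecule, fell by 1.68 on the log2 scale in shZMYND8 against shLuciferase (6.90 and 5.84 CPM against 21.0 and 19.8 CPM, edgeR adjusted p = 0.000546), a call kept whichever library was left out. CDH1, the epithelial cadherin, rose by 1.01 there (edgeR adjusted p = 0.013), lost without either shZMYND8 library, and neither keratin passed. In shJARID1D the keratin genes KRT8 and KRT18 fell by 0.86 and 0.67, calls kept without shLuciferase replicate 1 and lost without each other library. The part of these shifts in the members' differences was not tested. KLK2, a marker of differentiated prostate epithelium, was at 0 in every library. Of the blood cell genes, CD3E was at 0 throughout and PTPRC did not exceed 0.0429 CPM, while the 6-gene blood list, most of it CD68, summed to 47.2 to 58.3 CPM in shZMYND8, 45.5 to 45.8 CPM in shJARID1D and 36.9 to 43.2 CPM in shLuciferase. The 5 stromal and endothelial genes summed to 5.93 to 6.43 CPM in shZMYND8, 2.57 to 3.86 CPM in shJARID1D and 1.29 to 2.38 CPM in shLuciferase, an order shared with the members. Of the 3 of them tested, COL1A1 passed in shZMYND8 against shLuciferase, a call lost without either shZMYND8 library or shLuciferase replicate 2, and 0 of 3 tested blood cell genes passed. The part of such cells in the members' differences was not tested.

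In shZMYND8 cells all 7 members were higher than in shLuciferase cells, and all 7 passed the test, by 2.65-fold for HERC5 to 20.6-fold for UBD. In shJARID1D cells 6 of the 7 passed against shLuciferase, by 1.91-fold for UBE2L6 to 3.99-fold for UBD, and USP18 did not. Set against shJARID1D, shZMYND8 was higher with 5 of the 7 past the test, and ISG15 and HERC5 were not among them. In bulk RNA a change in the share of cells that express a gene and a change in RNA per cell cannot be told apart. The first 2 comparisons share the shLuciferase libraries, so their values are given side by side and not as separate support.

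**Figure D2:**
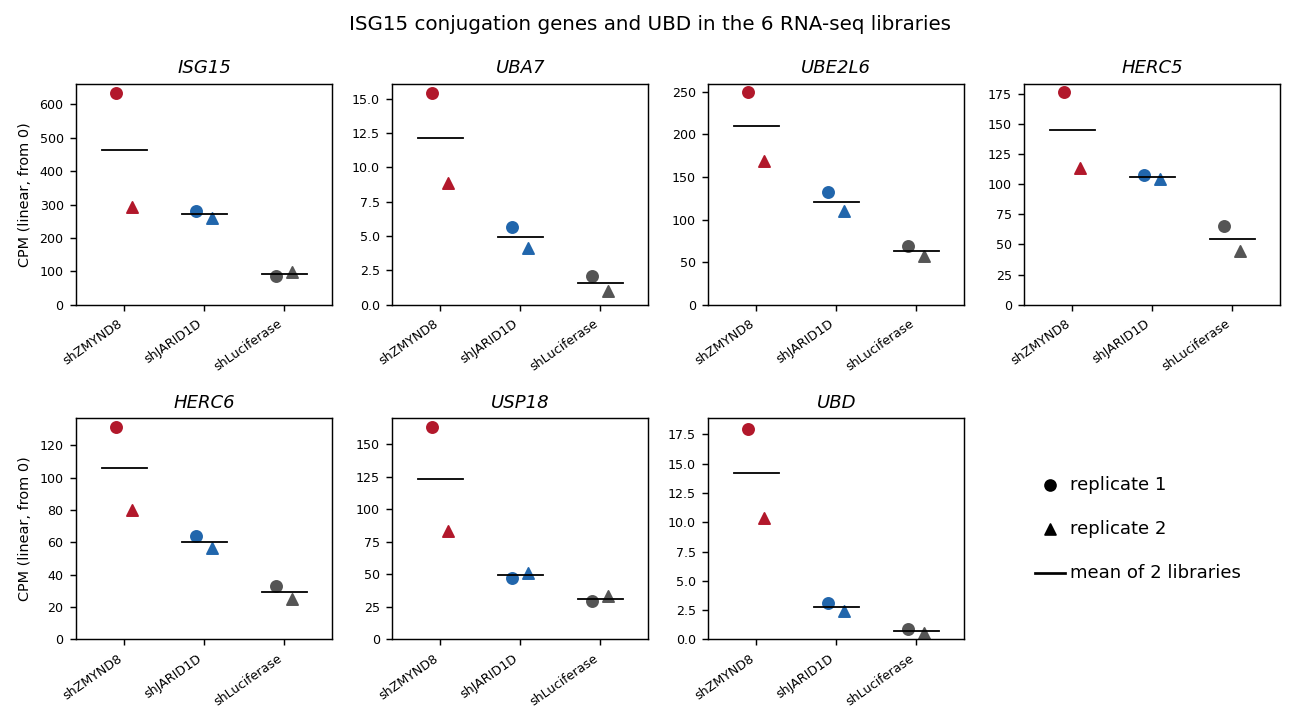
CPM (linear axes from 0) of the 7 members in the 6 libraries, with circles for replicate 1, triangles for replicate 2 and a bar at the mean of the 2 libraries. For every member both shZMYND8 libraries lie above both shJARID1D libraries, which lie above both shLuciferase libraries, and shZMYND8 replicate 1 is the highest library.

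ISG15, the modifier, had 635 and 293 CPM in shZMYND8, 282 and 261 CPM in shJARID1D and 87.3 and 98.6 CPM in shLuciferase. The groups did not overlap, but shZMYND8 replicate 2 stood close to the shJARID1D libraries and replicate 1 stood far above them. ISG15 rose 4.99-fold in shZMYND8 against shLuciferase (log2 fold change 2.32 ± 0.29 standard error, edgeR adjusted p = 0.00111) and 2.92-fold in shJARID1D against shLuciferase (1.54 ± 0.28, edgeR adjusted p = 0.0191). Between shZMYND8 and shJARID1D the difference of 0.77 ± 0.28 did not pass (edgeR adjusted p = 0.0852), with a 95% interval of 0.16 to 1.39. Without shZMYND8 replicate 1 the fold change against shLuciferase was 1.66 on the log2 scale and that against shJARID1D 0.11; without shZMYND8 replicate 2 the second was 1.22 and passed (edgeR adjusted p = 0.00924).

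UBA7, the activating enzyme of ISG15, had 15.4 and 8.85 CPM in shZMYND8, 5.66 and 4.16 CPM in shJARID1D and 2.09 and 1.03 CPM in shLuciferase. The control values rest on 47 and 24 fragments, with 95% counting intervals of 34.5 to 62.5 and 15.4 to 35.7 fragments, against 389 and 234 fragments in shZMYND8 and 133 and 84 in shJARID1D. The 3 groups were fully separated. UBA7 rose 7.75-fold in shZMYND8 (2.95 ± 0.37, edgeR adjusted p = 0.0011) and 3.14-fold in shJARID1D (1.65 ± 0.38, edgeR adjusted p = 0.0372) against shLuciferase, and was 2.47-fold higher in shZMYND8 than in shJARID1D (1.30 ± 0.32, edgeR adjusted p = 0.0261). Its 2 control libraries differed by 2.03-fold, and without shLuciferase replicate 1 the log2 fold changes against shLuciferase were 3.55 in shZMYND8 and 2.25 in shJARID1D.

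UBE2L6, the enzyme that carries activated ISG15, had 249.9 and 169 CPM in shZMYND8, 132 and 110.3 CPM in shJARID1D and 69.1 and 57.6 CPM in shLuciferase. Each group kept to its own range. UBE2L6 rose 3.31-fold in shZMYND8 (1.73 ± 0.19, edgeR adjusted p = 0.00075) and 1.91-fold in shJARID1D (0.93 ± 0.19, edgeR adjusted p = 0.0251), and was 1.73-fold higher in shZMYND8 than in shJARID1D (0.79 ± 0.19, edgeR adjusted p = 0.0212).

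HERC5, the human ISG15 ligase, had 177 and 113 CPM in shZMYND8, 108 and 104 CPM in shJARID1D and 65.1 and 44.3 CPM in shLuciferase. The lower shZMYND8 library lay just above the shJARID1D libraries, so that the knockdown groups almost met while both stood clear of the control. HERC5 rose 2.65-fold in shZMYND8 (1.41 ± 0.22, edgeR adjusted p = 0.00326) and 1.93-fold in shJARID1D (0.95 ± 0.22, edgeR adjusted p = 0.0394) against shLuciferase. The difference of shZMYND8 from shJARID1D was 0.46 ± 0.22 (edgeR adjusted p = 0.182), with a 95% interval of -0.03 to 0.94.

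HERC6, the relative of HERC5, had 131 and 80.0 CPM in shZMYND8, 63.8 and 56.5 CPM in shJARID1D and 33.0 and 25.1 CPM in shLuciferase. The order of the groups was that of HERC5, with a wider gap between the knockdowns. HERC6 rose 3.63-fold in shZMYND8 (1.86 ± 0.22, edgeR adjusted p = 0.000979) and 2.07-fold in shJARID1D (1.05 ± 0.22, edgeR adjusted p = 0.0288), and was 1.76-fold higher in shZMYND8 than in shJARID1D (0.81 ± 0.22, edgeR adjusted p = 0.0322).

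USP18, the protease that removes ISG15, had 163 and 83.3 CPM in shZMYND8, 47.5 and 51.3 CPM in shJARID1D and 29.4 and 33.2 CPM in shLuciferase. The shJARID1D libraries stood nearer to the control than to either shZMYND8 library. USP18 rose 3.94-fold in shZMYND8 (1.98 ± 0.26, edgeR adjusted p = 0.00138) and was 2.50-fold higher in shZMYND8 than in shJARID1D (1.32 ± 0.25, edgeR adjusted p = 0.00898). In shJARID1D it did not pass against shLuciferase: the log2 fold change was 0.66 ± 0.25 (edgeR adjusted p = 0.154), with a 95% interval of 0.09 to 1.23. That call turned with the libraries of the group not compared, since USP18 passed without shZMYND8 replicate 1 (edgeR adjusted p = 0.0453) or replicate 2 (0.0481).

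UBD had 17.99 and 10.3 CPM in shZMYND8, 3.09 and 2.40 CPM in shJARID1D and 0.85 and 0.51 CPM in shLuciferase. These are 456 and 274 fragments in shZMYND8, 72 and 48 in shJARID1D and 19 and 12 in shLuciferase, where the 95% counting intervals were 11.4 to 29.7 and 6.20 to 21.0 fragments. No interval of a shLuciferase library reached a shJARID1D library's, and both were far below shZMYND8. UBD rose 20.6-fold in shZMYND8 (4.36 ± 0.36, edgeR adjusted p = 0.000388) and 3.99-fold in shJARID1D (1.997 ± 0.39, edgeR adjusted p = 0.0227), and was 5.16-fold higher in shZMYND8 than in shJARID1D (2.37 ± 0.30, edgeR adjusted p = 0.00173). Its log2 fold change was the largest of the 7 in each of the 3 comparisons.

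**Figure D3:**
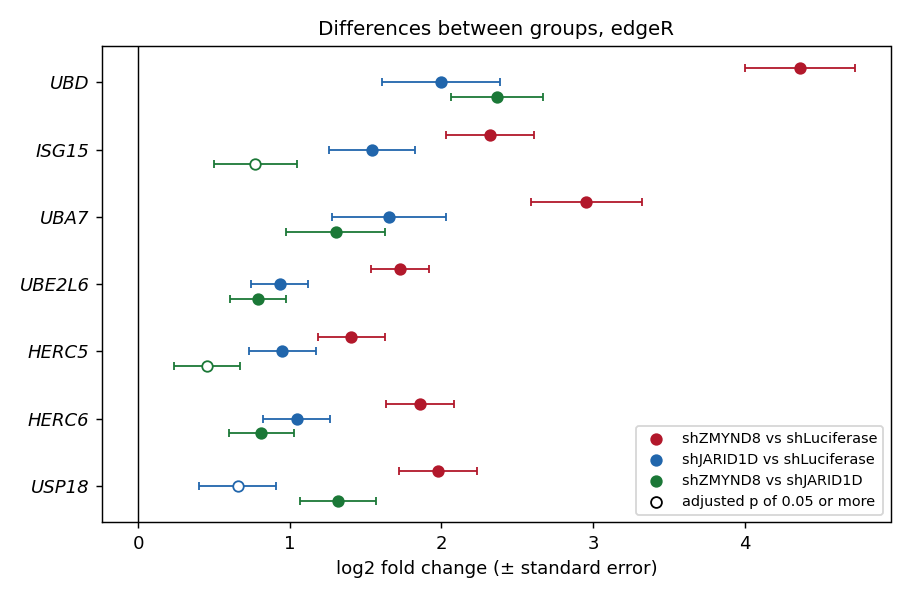
Log2 fold changes of the 7 members with their standard errors (edgeR, 2 libraries per group), for both knockdowns against shLuciferase and for shZMYND8 against shJARID1D; open circles have an adjusted p of 0.05 or more. UBD reaches 4.36 in shZMYND8, and the open circles are ISG15 and HERC5 between the knockdowns and USP18 in shJARID1D.

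Against this stands what all 15867 genes tested did. In shZMYND8 against shLuciferase 8.89% of them passed higher and 7.34% lower, and the members' 7 of 7 compare with these shares; their median log2 fold change was 1.98 and that of all genes -0.01. In shJARID1D against shLuciferase 2.96% passed higher and 2.79% lower, and the 6 of 7 members had a median of 1.05 over the list against 0.00 for all genes. In shZMYND8 against shJARID1D 8.67% passed higher and 7.02% lower, with 5 of 7 members and a median of 0.81 against 0.00. Both libraries of the first-named group lay above both of the second in 7 of 7 members in each comparison. Of all genes, 30.0% did so for shZMYND8 over shLuciferase, 27% for shJARID1D over shLuciferase and 32.7% for shZMYND8 over shJARID1D. The members were chosen with earlier results of these data known, so these counts are descriptions.

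The spread within groups was itself patterned. In shZMYND8 every member was higher in replicate 1 than in replicate 2, by 0.56 (UBE2L6) to 1.11 (ISG15) on the log2 scale, while 90% of all genes tested lay between -0.42 and 0.58 with a median of 0.00. ISG15 thus stood above 98.9% of all genes in that ratio, USP18 above 98.3%, and UBE2L6, the lowest member, above 94.8%. In shJARID1D the members ran from -0.11 (USP18) to 0.44 (UBA7) and in shLuciferase from -0.18 (ISG15 and USP18) to 0.96 (UBA7), and apart from UBA7 in shLuciferase they lay inside the 90% range of all genes, which was -0.44 to 0.60 in shJARID1D and -0.66 to 0.73 in shLuciferase. The labels give no batch, and what set the 2 shZMYND8 libraries apart was not tested.

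With 1 library left out at a time, all 7 members kept their call in shZMYND8 against shLuciferase, with the highest adjusted p at 0.0325 (HERC5, edgeR). These fits take a group's lone library to have the spread of the other groups. In shJARID1D against shLuciferase the count of 6 fell to 0 without either shJARID1D library, with 7 members at an unadjusted p under 0.05 without replicate 1 and 6 without replicate 2, and to 2 (ISG15 and UBE2L6) without shLuciferase replicate 2. Without a filter on low counts it was also 0, with 6 at an unadjusted p under 0.05, whereas DESeq2 called 6 and limma voom 4. Between the knockdowns the count of 5 fell to 2 without shZMYND8 replicate 1 (UBD and USP18), when USP18 stood at 0.75, and to 1 (UBD) without either shJARID1D library. All log2 fold changes of the members stayed positive in every such fit, and UBD was the member that passed in all 6 between the knockdowns.

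**Figure D4:**
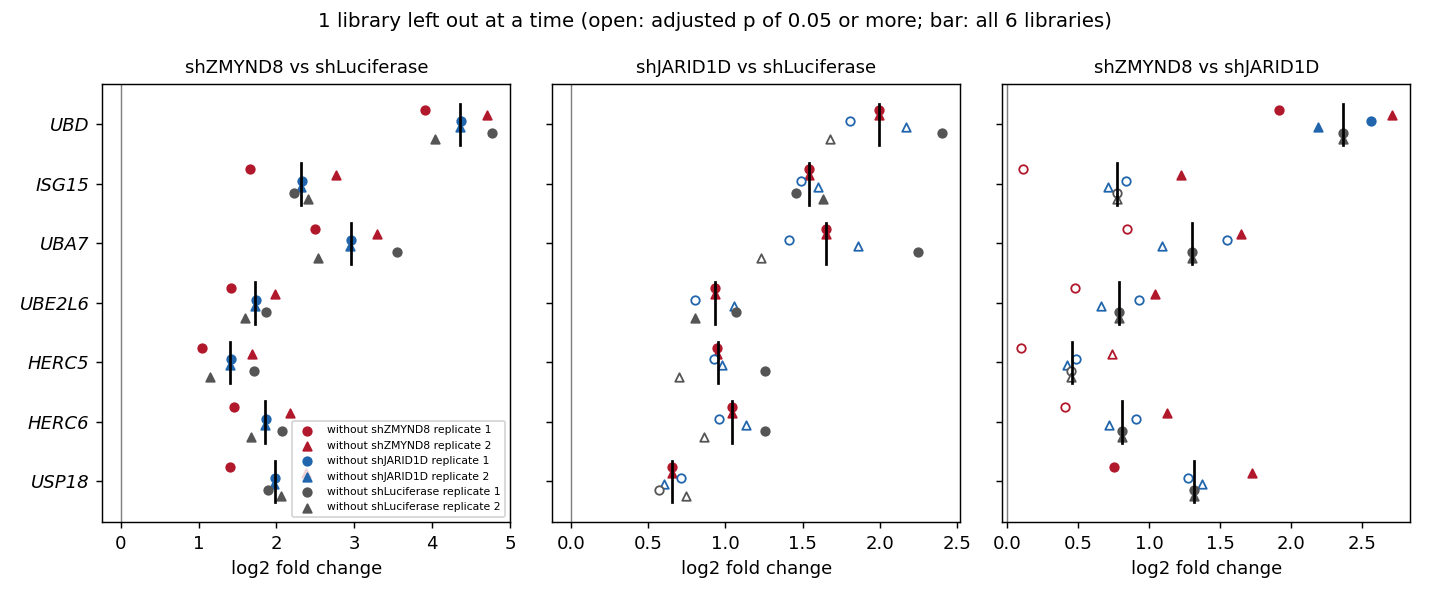
Log2 fold changes of the members with 1 library left out at a time (marker colour for the group of that library, circle for replicate 1, triangle for replicate 2; black bar for all 6 libraries; open markers for an adjusted p of 0.05 or more). In shZMYND8 against shLuciferase all markers are filled; in shJARID1D against shLuciferase those without a shJARID1D library are open.

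The ratio of ISG15 to USP18 had a separate range in each group, and that of UBD to ISG15 set shZMYND8 apart. The ratio of ISG15 to USP18 CPM, not corrected for gene length, was 3.88 and 3.52 in shZMYND8, 5.93 and 5.09 in shJARID1D and 2.97 in each shLuciferase library. This ratio was highest in shJARID1D, where ISG15 passed against shLuciferase and USP18 did not. UBD per 1000 ISG15 was 28.4 and 35.3 in shZMYND8, 10.95 and 9.21 in shJARID1D and 9.76 and 5.21 in shLuciferase. The shZMYND8 libraries stood apart from the others in this ratio, and those of shJARID1D and shLuciferase overlapped. The other ratios overlapped between at least 1 pair of groups. ISG15 over UBA7 was 41.3 and 33.2 in shZMYND8, 49.8 and 62.7 in shJARID1D and 41.8 and 95.9 in shLuciferase. ISG15 over HERC6 was 4.84 and 3.67 in shZMYND8, 4.42 and 4.62 in shJARID1D and 2.64 and 3.92 in shLuciferase. Over UBE2L6 and HERC5 the knockdowns overlapped and the shLuciferase libraries lay below them, for UBE2L6 only just (lowest 1.73 in shZMYND8, highest 1.71 in shLuciferase). No ratio was tested.

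Over the 6 libraries the log2 CPM of the members correlated with a Pearson r of 0.879 to 0.997 over 21 pairs (median 0.967). These are descriptions, since the 6 libraries share the 3 group differences. Searching 11476 genes that averaged 5 CPM or more, the profiles nearest to ISG15 were HLA-F (r = 0.997), an HLA class I gene, HELZ2 (0.996), PAAF1 (0.994) and IFI35 (0.993), an interferon-induced gene. HLA-F had 112 and 59.6 CPM in shZMYND8, 58.8 and 52.0 CPM in shJARID1D and 24.7 and 28.8 CPM in shLuciferase. HLA-F, HELZ2 and IFI35 followed ISG15 also in the gap between the shZMYND8 libraries, while PAAF1 moved little, from 12.1 to 16.7 CPM over all libraries. The profiles nearest to UBD were LOC344887 (0.999), RAB9A (0.998), LNPEP (0.997) and IRF1 (0.996), an interferon-induced transcription factor. IRF1 had 123 and 98.6 CPM in shZMYND8, 75.2 and 71.2 CPM in shJARID1D and 49.6 and 43.6 CPM in shLuciferase. Over all libraries LOC344887 ran from 18.5 to 43.6 CPM, RAB9A from 15.3 to 25.8 CPM and LNPEP from 70.0 to 116 CPM. In proportion these ranges, and that of IRF1, were far narrower than that of UBD, from 0.51 to 17.99 CPM.

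The relatives of the members were counted without the members themselves, in lists of named families. For the E1 step, 0 of 9 related activating enzymes and subunits passed in any of the 3 comparisons in edgeR, with medians of -0.16 in shZMYND8 and -0.09 in shJARID1D against shLuciferase. UBA1, which activates ubiquitin, differed by -0.24 in shZMYND8, and UBA6, which activates ubiquitin and UBD, by -0.05. Neither passed, so that UBA7 was the one activating enzyme of the list called in either knockdown. At an unadjusted p under 0.05 edgeR had 3 of the 9 in shZMYND8 and 2 in shJARID1D against shLuciferase and 1 between the knockdowns, while DESeq2 and limma voom called 0 in each. Without a shLuciferase library edgeR called at most 1 of the 9 in each direction.

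For the E2 step, 0 of 29 relatives of UBE2L6 rose and 8 fell in shZMYND8 against shLuciferase, with a median of -0.23. UBE2C, which works with the anaphase-promoting complex in mitosis, had 94.2 and 94.98 CPM in shZMYND8 and 175 and 198 CPM in shLuciferase (-0.98 ± 0.13, edgeR adjusted p = 0.00154). UBE2S, which extends ubiquitin chains for the same complex, fell by 1.26, UBE2T by 0.61, UBE2D1 by 0.78 and UBE2J1 by 0.52 on the log2 scale. UBE2L3, a ubiquitin carrier and a close relative of UBE2L6, differed by -0.18 and did not pass. None of the 29 rose by DESeq2 or limma voom either, and 1 was higher at an unadjusted p under 0.05. The count of 8 was 1 (UBE2C) without either shZMYND8 library and 5 without either shJARID1D library, while without shLuciferase replicate 1 it was 6 with 1 gene higher, and without shLuciferase replicate 2 it was 10. In shJARID1D 0 rose, by all 3 tools and at an unadjusted p under 0.05, and UBE2Q2 and UBE2W fell by 0.66 and 0.70. Both calls were lost without either shJARID1D library or either shZMYND8 library, and DESeq2 called 6 lower, as did edgeR without shLuciferase replicate 1. Between the knockdowns 2 were higher and 4 lower in shZMYND8, of which UBE2C and UBE2T passed whichever library was left out.

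For the ligases, 0 of the other 4 HERC genes rose in either knockdown against shLuciferase by edgeR, DESeq2 or limma voom, nor at an unadjusted p under 0.05. HERC4, a ubiquitin ligase, moved the other way from HERC5 and HERC6: it had 174 and 185 CPM in shZMYND8, 174 and 178 CPM in shJARID1D and 288 and 279.9 CPM in shLuciferase. It fell by 0.66 in shZMYND8 and by 0.69 in shJARID1D on the log2 scale (edgeR adjusted p = 0.00417 for shZMYND8 and 0.0139 for shJARID1D). The first call was lost without shZMYND8 replicate 1 (0.065) and the second without shJARID1D replicate 1 (0.141) or replicate 2 (0.095). HERC2 was 0.62 higher in shZMYND8 than in shJARID1D, and lost that call without shZMYND8 replicate 2 or either shJARID1D library.

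For the proteases, 2 of 44 relatives of USP18 rose and 1 fell in shZMYND8 against shLuciferase, with a median of -0.07. USP40 had 96.6 and 101 CPM in shZMYND8, 84.3 and 82.8 CPM in shJARID1D and 50.8 and 53.7 CPM in shLuciferase, and rose by 0.92 in shZMYND8 and 0.68 in shJARID1D. It kept its call in shZMYND8 whichever library was left out and lost it in shJARID1D without either shJARID1D library. USP37 rose by 0.55 and USP14, a proteasome-bound protease, fell by 0.55 in shZMYND8, both lost without either shZMYND8 library; without shLuciferase replicate 1 the counts were 4 and 2, and without either shZMYND8 library 1 and 0. In shJARID1D 1 rose and 2 fell. The 2, USP28 and USP44, lost their calls without either shJARID1D library or either shZMYND8 library. Without shLuciferase replicate 1 the counts there were 4 and 3, and DESeq2 called 4 lower. USP41, a near copy of USP18, had 0 or 1 fragment per library. Estimated counts divide shared reads between such copies, which leaves USP18 uncertain to that extent.

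**Figure D5:**
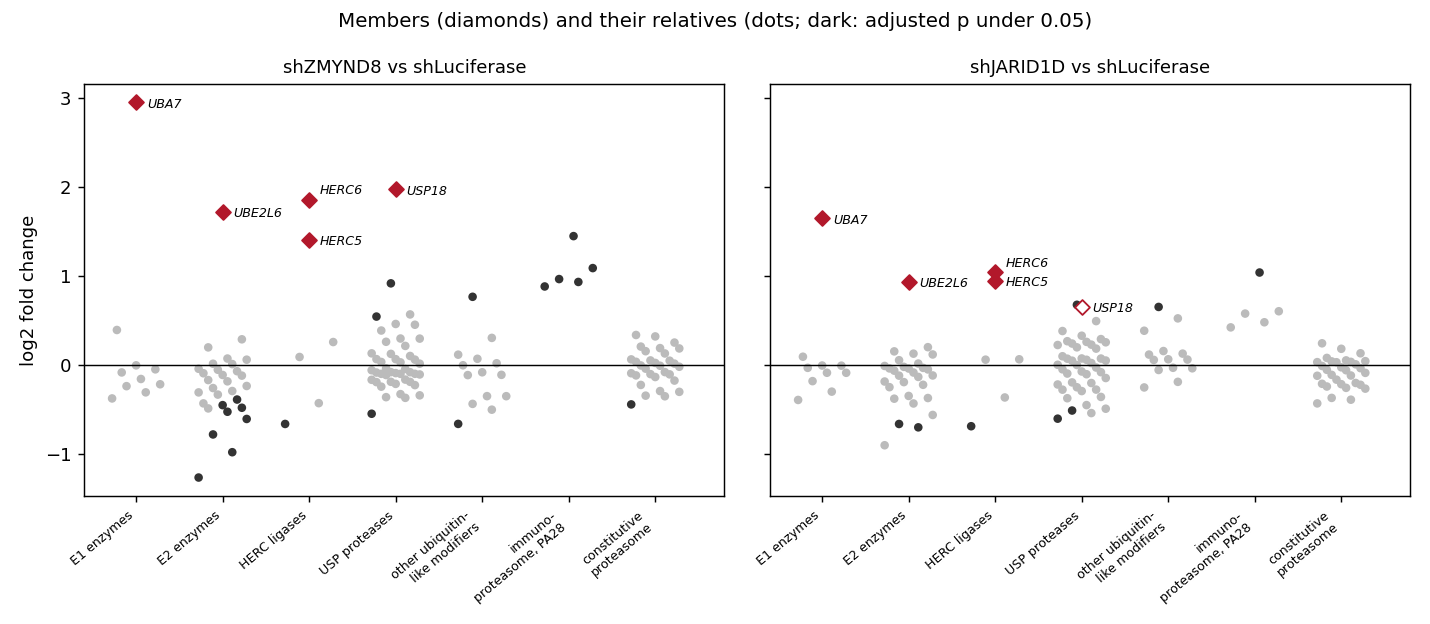
Log2 fold changes against shLuciferase of members (diamonds, open where the adjusted p is 0.05 or more) and of their relatives (dots, dark where the adjusted p is under 0.05), by family, for shZMYND8 on the left and shJARID1D on the right. In shZMYND8 UBA7, UBE2L6, HERC5, HERC6 and USP18 lie above every dot of their own family.

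Of 14 other ubiquitin-like modifiers, 1 rose and 1 fell in shZMYND8 against shLuciferase: GABARAPL1, an autophagy modifier, by 0.77, and SUMO3 by -0.66. In shJARID1D GABARAPL1 alone passed, at 0.65. Each of these calls was lost without at least 1 library of its own knockdown. Of 24 enzymes of the SUMO, NEDD8 and UFM1 pathways 1 rose and 2 fell there, against 0 and 1 in shJARID1D. All of these calls were lost in at least 1 fit with a library left out.

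The partners of the 2 modifiers changed in part. Of 11 other ISG15 ligases, proteases and partners, 3 rose and 1 fell in shZMYND8 against shLuciferase. The lists share some genes, so their counts are not separate. The 1 that fell is USP14, counted above with the proteases, and STAT2 is counted again below with the upstream factors. UBA6 is both among the activating enzymes and among the partners of UBD. IFNAR2, the receptor chain that USP18 binds, had 66.9 and 73.7 CPM in shZMYND8, 45.5 and 53.0 CPM in shJARID1D and 37.5 and 35.9 CPM in shLuciferase, and rose by 0.94 ± 0.13 in shZMYND8 (edgeR adjusted p = 0.00153). STAT2 rose by 1.09 and TRIM25, a ligase that ISG15 modifies, by 0.58, and both lost their call without shZMYND8 replicate 1 (edgeR adjusted p = 0.0904 and 0.116). In shJARID1D 0 of the 11 passed against shLuciferase in edgeR and limma voom and 1 in DESeq2, with 2 at an unadjusted p under 0.05 in edgeR.

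Of 8 activation, conjugation and binding partners of UBD, SQSTM1 rose and MAD2L1 fell in both knockdowns. SQSTM1, an autophagy receptor that binds UBD, was 1.02 higher in shZMYND8 (edgeR adjusted p = 0.00104) and 0.66 higher in shJARID1D (0.02). MAD2L1, a spindle checkpoint protein that binds UBD, had 23.7 and 26.5 CPM in shZMYND8, 34.6 and 42.1 CPM in shJARID1D and 58.4 and 59.4 CPM in shLuciferase. It fell by 1.23 in shZMYND8 (edgeR adjusted p = 0.000729) and by 0.62 in shJARID1D (0.0307) on the log2 scale. Both kept their calls in shZMYND8 whichever library was left out and lost them in shJARID1D without either shJARID1D library, MAD2L1 also without either shZMYND8 library. UBA6 and UBE2Z, which activate and carry UBD, did not pass in either knockdown against shLuciferase. Between the knockdowns UBE2Z passed, higher in shZMYND8, a call lost without either library of either knockdown. Its log2 fold change in those fits was 0.35 to 0.54.

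The proteasome that UBD leads to split into its inducible and its constitutive parts. All 5 immunoproteasome and PA28 genes rose in shZMYND8 against shLuciferase, with log2 fold changes of 0.88 to 1.45 and a median of 0.97, while of 31 constitutive subunits 0 rose and 1 fell. The 1, PSMD14, fell by 0.44, a call kept without shLuciferase replicate 1 and lost without each of the other 5 libraries. DESeq2 and limma voom gave the same counts of 0 and 1, and 2 of the 31 were higher at an unadjusted p under 0.05. PSMB9, a catalytic subunit of the immunoproteasome, had 73.3 and 49.98 CPM in shZMYND8, 45.6 and 47.2 CPM in shJARID1D and 23.5 and 21.6 CPM in shLuciferase. Its groups were separate, and the shJARID1D libraries stood close to the lower shZMYND8 library. Without shZMYND8 replicate 1 the count of 5 was 3 (PSMB8, PSMB9 and PSME1). In shJARID1D PSMB9 alone of the 5 passed (1.04), lost without either shJARID1D library, and DESeq2 called 3. Of the 31 constitutive subunits 0 passed there by edgeR, DESeq2 or limma voom, with 3 lower at an unadjusted p under 0.05. These constitutive counts rest on all 6 libraries. Without a shLuciferase library edgeR called some constitutive subunits lower, and none higher, in each knockdown against shLuciferase.

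Of 10 upstream factors of the interferon and NF-kB pathways, 7 rose in shZMYND8 against shLuciferase and 4 in shJARID1D. IRF7, which amplifies the interferon response, had 123 and 62.8 CPM in shZMYND8, 65.3 and 56.6 CPM in shJARID1D and 15.4 and 16.3 CPM in shLuciferase. It showed the same near-meeting of shZMYND8 replicate 2 with shJARID1D as ISG15, and rose by 2.56 in shZMYND8 and 1.95 in shJARID1D. IRF9, IRF1 and NFKB2 rose in shZMYND8 by 1.31, 1.25 and 1.05 on the log2 scale, and with IRF7 they kept their calls whichever library was left out; STAT2 and RELB (0.62) did not. In shJARID1D IRF7, IRF9 (1.52), RELB (0.86) and IRF1 (0.65) passed, with 0 left without shJARID1D replicate 1 and 1 without replicate 2, and DESeq2 called 7. Of the 10 factors IRF1 alone passed between the knockdowns (0.60 higher in shZMYND8), lost without shZMYND8 replicate 1 or either shJARID1D library.

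Some reads of the members may belong to neighbours, since the sources used here do not give whether the counting used strand. In the RefSeq annotation LOC102723458, a noncoding RNA, overlaps HERC5 and HERC6, OR2I1 overlaps UBD, and MIR5193, listed at 0 here, lies in UBA7. PPM1K, a neighbour of HERC6 that makes a mitochondrial phosphatase, had 18.6 and 10.3 CPM in shZMYND8, 10.3 and 9.94 CPM in shJARID1D and 6.77 and 5.48 CPM in shLuciferase. PPM1K rose by 1.24 in shZMYND8 (edgeR adjusted p = 0.0113) and did not pass in shJARID1D (0.73, edgeR adjusted p = 0.132). Without shZMYND8 replicate 1 its log2 fold change in shZMYND8 was 0.75. It was the 1 gene called there of 8 tested near copies and neighbours of the members, and the other 7 did not pass. By edgeR 0 of the 8 passed in shJARID1D against shLuciferase or between the knockdowns.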

How the data were processed

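RNA was sequenced in 6 DU145 libraries, made from total RNA by a standard Illumina procedure, per the labels' protocols; the other 29 of 35 samples, chromatin immunoprecipitation and input, were not analysed here. The deposited table holds expected counts (estimated fragments per gene) that Cuffdiff wrote, per the file headers. Build hg19, Bowtie 1.1.2, TopHat2 2.0.12 and edgeR 3.12.0 appear in the submitters' processing notes without roles. The authors' values are scaled: 1 fragment is worth 0.881 to 1.16, and 84.0% to 84.9% of values below 1000 fragments came out whole within 0.05 after division. Columns named Rac7_KO were taken as shZMYND8, on the assumption that Rac7 is RACK7, another name of ZMYND8. The 18 variance columns were not used, and 60 genes marked unquantified (HIDATA) in any library were left out, none of them a member; 10 marked as failed were kept.

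Counts were rounded and tested by the quasi-likelihood F test of edgeR 4.0.16 (R 4.3.3), with trimmed-mean scaling, filterByExpr and all 6 libraries in 1 fit (3 residual degrees of freedom, common biological coefficient of variation 12.3%), Benjamini-Hochberg over 15867 genes, threshold 0.05. CPM use the same scaling; intervals of log2 fold changes are 95%, and counting intervals exact Poisson. Likeness is Pearson's r of log2 CPM with a prior count of 2. The members and the 19 gene lists (220 genes, all matched, 207 tested) were chosen with earlier results of these data known. Named were all members, the targets, up to 6 called members of each list by smallest adjusted p (some printed only in counts), neighbours, relatives that a count turns on, and the 4 genes most like ISG15 and UBD. Relatives singled out without a call against shLuciferase (UBA1, UBA6, UBE2L3, UBE2Z) were chosen after their values were seen. Alternatives were other scalings, filters, DESeq2 1.42.0, limma voom 3.58.1, 2 groups only, a replicate block, each library left out, stricter thresholds, the scaling undone and unquantified genes kept. A planned comparison of protein sequences was not run. Some members of the gene lists are not reported here. The fit was tested on simulated data. Tables and figures used Python 3.11.15, pandas 2.3.3, scipy 1.17.1 and matplotlib 3.10.9.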

Additional observations from a re-analysis of the deposited data

How the results depend on the processing

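In shZMYND8 against shLuciferase all 7 members passed under each of the alternatives tried. No member reversed its direction under any alternative in any comparison. Between shJARID1D and shLuciferase the 6 members past the threshold became 0 without a filter on low counts, where more genes were tested, and 0 at an adjusted p of 0.01, and ranged from 0 to 7 with 1 library left out. With limma voom UBA7 (adjusted p = 0.0639) and UBD (0.0712) missed, and with only those 2 groups in the fit USP18 passed (0.0434). Between the knockdowns the 5 members became 2 without a filter, 2 at 0.01, 3 with a log2 fold change of at least 1, and ranged from 1 to 6 with a library left out. Over all genes, 2574 passed in shZMYND8 against shLuciferase, 1002 at 0.01, 803 with a log2 fold change of at least 1, and 642 to 3222 with a library left out. In shJARID1D against shLuciferase 912 passed, 204 without a filter, 449 with 2 groups, 77 at 0.01, 239 with a log2 fold change of at least 1, and 16 to 2145 with a library left out. Between the knockdowns 2490 passed, 1560 without a filter, 4252 with 2 groups, 761 at 0.01, 635 with a log2 fold change of at least 1, and 551 to 4191 with a library left out. Apart from the filter and the fits with fewer libraries, the cause was not tested. No scaling moved the median of all genes by more than 0.09 on the log2 scale.

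Same-numbered libraries correlated in their deviations at 0.09 to 0.17 across genes, with 2 pairs per comparison, so the numbers are not shown to pair the libraries. With a replicate block 3699, 2073 and 3785 genes passed in shZMYND8 against shLuciferase, shJARID1D against shLuciferase and shZMYND8 against shJARID1D, and the members numbered 7, 6 and 6, with ISG15 added between the knockdowns (0.72, edgeR adjusted p = 0.0406). Depth limits UBD and UBA7 most: the lowest member value rests on 12 fragments.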
